A study of Mus musculus with 72 samples.

Results

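The 42 genes described here act in proliferation and the cell cycle. They were chosen by symbol, with earlier results of these data known, so the list is not independent of the data. They include enzymes of DNA precursor synthesis and replication, mitotic cyclins and kinases, and chromosome proteins. The others are spindle and checkpoint proteins, the machinery that degrades mitotic proteins, and proteins of cytokinesis. Of the 42, 41 had at least 1 probe set assigned to that gene alone, among 18193 genes measured in this way, and Ccnb1 was not analysed here. Each gene was read from its brightest such probe set. Of the 41, 30 passed the filter on dim signals and were tested with 12580 genes in all.

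RNA was measured on oligonucleotide arrays in peripheral blood. The donors were female Balb/c mice that were 9 weeks old at the start and drank water with lead acetate trihydrate at 0 (control), 5 (low dose) or 50 µg/mL (high dose) for 2 weeks. All mice then drank plain water for 2 weeks. At the end of exposure 7 control, 15 low-dose and 15 high-dose samples were taken, and at the end of recovery 7, 15 and 13, which gave 72 arrays. Blood was drawn from the submandibular site and depleted of globin transcripts before labelling. Exposed mice gave blood at each collection, so the groups are not independent sets of animals, and these mice were also 2 weeks older and had been bled before at the second. Within a lead dose, age, an earlier bleed and any difference in handling cannot be told apart from the end of exposure in the comparison of collections. Controls, at 0 µg/mL, were also sampled at both collections. Whether the lead doses changed otherwise than controls was tested as an interaction. The spread tested is that between blood samples, each of which is labelled as a separate sample.

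A dividing cell first copies its DNA, with nucleotides from ribonucleotide reductase and thymidylate synthase and with the MCM helicase opening the strands. It then enters mitosis when cyclin-dependent kinase 1 joins cyclins A and B, segregates its chromosomes on the spindle, destroys the cyclins through the anaphase-promoting complex and divides by cytokinesis. Mature red cells and most circulating white cells do not divide. Transcripts of mitotic genes in blood can be carried by young red cells (reticulocytes) released from the marrow, where erythroblasts divide, and by activated lymphocytes or circulating precursors. In whole blood, fewer cells of a type and less RNA per cell cannot be told apart.

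Array medians lay between 4.05 and 4.22 on the log2 scale, and 0 pairs of arrays were identical. Correlations between arrays lay between 0.958 and 0.995. On 2 arrays, high-dose exposure replicate 13 and low-dose recovery replicate 4, values scattered most widely around the gene medians (interquartile ranges of 0.472 and 0.492). The erythroid marker genes of the tissue check were present, with Alas2, the first enzyme of heme synthesis in red cells, at a mean of 13.8. The progenitor markers Kit, Cd34, Hlf and Ctsg did not pass the filter.

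Of the 30 tested members, 24 lay above the median of all values, 4.141, on all 72 arrays and 6 on some of them. The other 11 were too dim to test: Tyms (thymidylate synthase), Ccne2 (cyclin E2), Aurkb (the chromosomal passenger kinase), Melk (a mitotic kinase), Bub1 (a checkpoint kinase), Kif11 (the spindle motor Eg5), Cenpe (a kinetochore motor), Nuf2 and Ndc80 (kinetochore subunits that bind microtubules), Kif20a and Anln (both of cytokinesis). Of these, 9 lay above that median on 0 arrays, Cenpe on 2 and Ndc80 on 3. The dimmest probe set was that of Ccne2, whose medians in the 6 groups lay between 1.78 and 2.10, and the brightest that of Ube2c, with a mean of 11.1. Signals of different probe sets are not on a common scale, so this order says nothing of transcript abundance.

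The promoters of 5 members are shown first, because Ccnb2, Ube2c and Diaph3 fell and Mcm5 and Mcm7 rose between the collections in all 3 dose groups, as described next. Each is the RefSeq sequence on the GRCm38.p6 assembly from 190 bases before to 30 bases after the annotated start. The positions are chr9:70421525-70421744 (minus strand) for Ccnb2, chr2:164769739-164769958 (plus) for Ube2c, chr14:87141195-87141414 (minus) for Diaph3, chr8:75109319-75109538 (plus) for Mcm5 and chr5:138171854-138172073 (minus) for Mcm7. Capitals mark 3 kinds of motif on either strand: the cell cycle homology region (CHR, TTTGAA or TTCGAA), the CCAAT box (CCAAT) and an E2F site (TTTCCCGC, TTTCGCGC, TTTGCCGC or TTTGGCGC). Some overlap, so that a run of capitals can hold more than 1.
Ccnb2: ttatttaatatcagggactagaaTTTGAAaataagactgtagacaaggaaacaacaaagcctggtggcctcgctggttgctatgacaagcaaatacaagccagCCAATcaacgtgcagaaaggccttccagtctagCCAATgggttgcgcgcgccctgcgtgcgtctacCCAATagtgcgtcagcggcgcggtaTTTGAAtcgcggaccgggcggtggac
Ube2c: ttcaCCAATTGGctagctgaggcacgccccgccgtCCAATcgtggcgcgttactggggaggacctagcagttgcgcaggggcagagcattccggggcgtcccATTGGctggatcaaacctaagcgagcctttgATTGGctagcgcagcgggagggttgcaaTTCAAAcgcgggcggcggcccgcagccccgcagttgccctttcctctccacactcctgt
Diaph3: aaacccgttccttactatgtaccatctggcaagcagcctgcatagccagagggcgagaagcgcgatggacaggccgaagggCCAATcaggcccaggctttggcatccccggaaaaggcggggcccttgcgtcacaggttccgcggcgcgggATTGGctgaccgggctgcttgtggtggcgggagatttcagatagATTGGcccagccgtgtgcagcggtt
Mcm5: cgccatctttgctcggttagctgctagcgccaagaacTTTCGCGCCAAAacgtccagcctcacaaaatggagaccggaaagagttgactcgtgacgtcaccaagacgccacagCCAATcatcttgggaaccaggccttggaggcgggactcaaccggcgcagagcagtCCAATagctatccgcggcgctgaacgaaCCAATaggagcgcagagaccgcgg
Mcm7: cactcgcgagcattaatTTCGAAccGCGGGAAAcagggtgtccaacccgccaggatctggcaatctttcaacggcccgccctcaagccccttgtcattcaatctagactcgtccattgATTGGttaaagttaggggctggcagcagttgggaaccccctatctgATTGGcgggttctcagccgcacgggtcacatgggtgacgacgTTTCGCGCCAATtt

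Ccnb2 held the CHR letters at -167 and at 5 relative to the start, and CCAAT boxes at -87, -54 and -21. Ube2c held a CHR at -29, read on the opposite strand, beside CCAAT boxes, with none of the E2F letters. Diaph3 held 3 CCAAT boxes and neither of the other motifs. In Mcm5 the E2F letters overlapped on both strands at -153 and -149, and no CHR was found. Of the windows at the 2 annotated starts of Mcm7, the one with E2F letters was chosen for printing, so their presence there is no finding. That window held E2F letters at -165 and at 17, the second of which overlaps a CCAAT box, and a CHR at -173. The other window held 1 CCAAT box and neither CHR nor E2F letters.

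Promoter windows of 300 bases, from 250 before to 50 after the start, were found for 35 members (37 windows). CHR letters stood in 59.5% of them and in 19.2% of all 32851 mouse windows. CCAAT boxes stood in 81.1% against 37.4%, and E2F letters in 16.2% against 2.26%. Within the members, E2F letters stood in 40% of the 10 windows of replication genes and in 7.41% of the 27 windows of the other roles, and CHR letters in 20% and 74.1%. Letters of the GATA motif, AGATAA or TGATAA, which GATA1 binds in erythroid genes, stood in 2.7% of member windows and in 18.6% of all windows. The windows of Birc5, Melk, Nuf2, Nusap1 and Tyms held none of the CHR, CCAAT and E2F letters. These are matches of letters and not sites shown to be bound.

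Between the end of exposure and the end of recovery 8 members, 7 of them mitotic, fell in control mice and at both lead doses. The MCM helicase genes Mcm5 and Mcm7 rose in all 3 dose groups, in controls with calls that several settings ended. How many of all genes passed in the same direction in all 3 groups was not counted, so these 2 numbers have no background. The shares that follow are those of single comparisons. In controls 12 members passed the threshold, 10 lower and 2 higher after recovery, where 36.1% of all genes tested passed, 13.6% lower and 22.5% higher (limma, adjusted p under 0.05). Low-dose mice had 17 members past it, 12 lower and 5 higher, beside 44.1% of all genes, 17.9% lower and 26.2% higher. High-dose mice had 21, of which 16 were lower and 5 higher, beside 49.2% of all genes, 19.8% lower and 29.4% higher. The median member differed by -0.235 in controls, -0.135 at the low dose and -0.179 at the high dose on the log2 scale, and the median of all genes by -0.012, -0.004 and -0.004. The 8 were Rrm2, Ccnb2, Cdk1, Ncapg, Birc5, Cenpf, Ube2c and Diaph3. Of these, Cdk1 and Ncapg exceeded the filter level of 4.141 on 19 and 32 of the 72 arrays, mainly exposure arrays. They were thus tested largely through the collection in which they were higher, so their entry was not independent of this comparison. Their calls between collections also held without the filter.

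Among the proteins of cytokinesis, Diaph3, a formin that builds actin filaments, changed by the largest amount at both lead doses. Its log2 signal in controls ran from 8.53 to 9.05 (median 8.88) after exposure and from 6.77 to 8.22 (median 7.81) after recovery. All 7 recovery controls lay below every exposure control. Low-dose arrays ran from 7.76 to 9.19 (median 8.81) and then from 6.55 to 8.26 (median 7.47), with 12 of 15 recovery arrays below every exposure array. High-dose arrays ran from 8.09 to 9.29 (median 9.01) and then from 6.69 to 8.80 (median 7.65), with 10 of 13 below. Diaph3 fell by 1.21 ± 0.23 (SE) on the log2 scale in controls, by 1.27 ± 0.16 at the low dose and by 1.08 ± 0.16 at the high dose (limma, adjusted p = 2.51e-05, 9.07e-10 and 9.19e-08). The falls correspond to 2.31-fold, 2.42-fold and 2.11-fold. Prc1, which bundles the central spindle, fell at the high dose (-0.28 ± 0.07, adjusted p = 0.00104). It differed by -0.13 in controls, short of the threshold. Kif23 and Racgap1, partners in the centralspindlin complex, passed the threshold between collections in 0 of 3 dose groups.

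Among the cyclins and kinases, Ccnb2, cyclin B2, ran from 6.06 to 6.96 (median 6.42) after exposure and from 5.28 to 6.19 (median 5.75) after recovery in controls. Its low-dose range moved from 5.88 to 7.00 (median 6.45) to 4.84 to 6.42 (median 5.67), and at the high dose from 5.75 to 7.34 (median 6.68) to 5.23 to 6.88 (median 6.08). The ranges overlapped in each dose group, although 12 of 15 low-dose recovery arrays lay below every low-dose exposure array. Ccnb2 fell by 0.67 ± 0.20, 0.78 ± 0.14 and 0.61 ± 0.14 in the order control, low, high (adjusted p = 0.00715, 4.66e-06 and 0.000325).

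Cdk1, the kinase that drives entry into mitosis, had a dim probe set, which exceeded the filter level almost only on exposure arrays. It ran from 3.91 to 4.33 (median 4.12) and then from 3.16 to 3.95 (median 3.53) in controls, from 3.82 to 4.41 (median 4.12) and then from 3.51 to 4.16 (median 3.77) at the low dose, and from 3.94 to 4.48 (median 4.24) and then from 3.55 to 4.08 (median 3.91) at the high dose. Of the recovery arrays, 6 of 7, 9 of 15 and 10 of 13 lay below all exposure arrays of their dose. It fell by 0.48 ± 0.10, 0.35 ± 0.07 and 0.35 ± 0.07 (adjusted p = 8.62e-05, 1.38e-05 and 2.16e-05). Ccna2, cyclin A2, fell by 0.67 ± 0.16 at the low dose and by 0.42 ± 0.17 at the high dose, and differed by -0.46 in controls at an adjusted p of 0.109. The high-dose call was lost without high-dose exposure replicate 7 or 13 or high-dose recovery replicate 5, 7 or 8, with values between -0.39 and -0.36. Its second probe set gave -0.88, -0.69 and -0.72 in the order control, low, high. Aurka, the centrosomal kinase, fell at the high dose (-0.30 ± 0.08, adjusted p = 0.00137). Plk1, a kinase of mitotic entry and exit, and Foxm1, a transcription factor of G2 genes, passed in 0 of 3.

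For degradation of mitotic proteins, Ube2c, the ubiquitin-conjugating enzyme of the anaphase-promoting complex, ran from 11.09 to 12.02 (median 11.52) and then from 10.17 to 11.27 (median 10.66) in controls. Low-dose arrays ran from 11.17 to 11.89 (median 11.47) and then from 9.17 to 11.40 (median 10.60), and at the high dose from 10.53 to 12.03 (median 11.63) and then from 9.80 to 11.90 (mean 10.9). Of low-dose recovery arrays 13 of 15 lay below all low-dose exposure arrays, and of high-dose ones 3 of 13 did, since 1 exposure array was as low as 10.53. Ube2c fell by 0.75 ± 0.23, 0.97 ± 0.15 and 0.68 ± 0.16 (adjusted p = 0.00662, 5.03e-07 and 0.000316). Cdc20, which activates the same complex, passed in 0 of 3 and differed by -0.04 in controls.

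**Figure D1:**
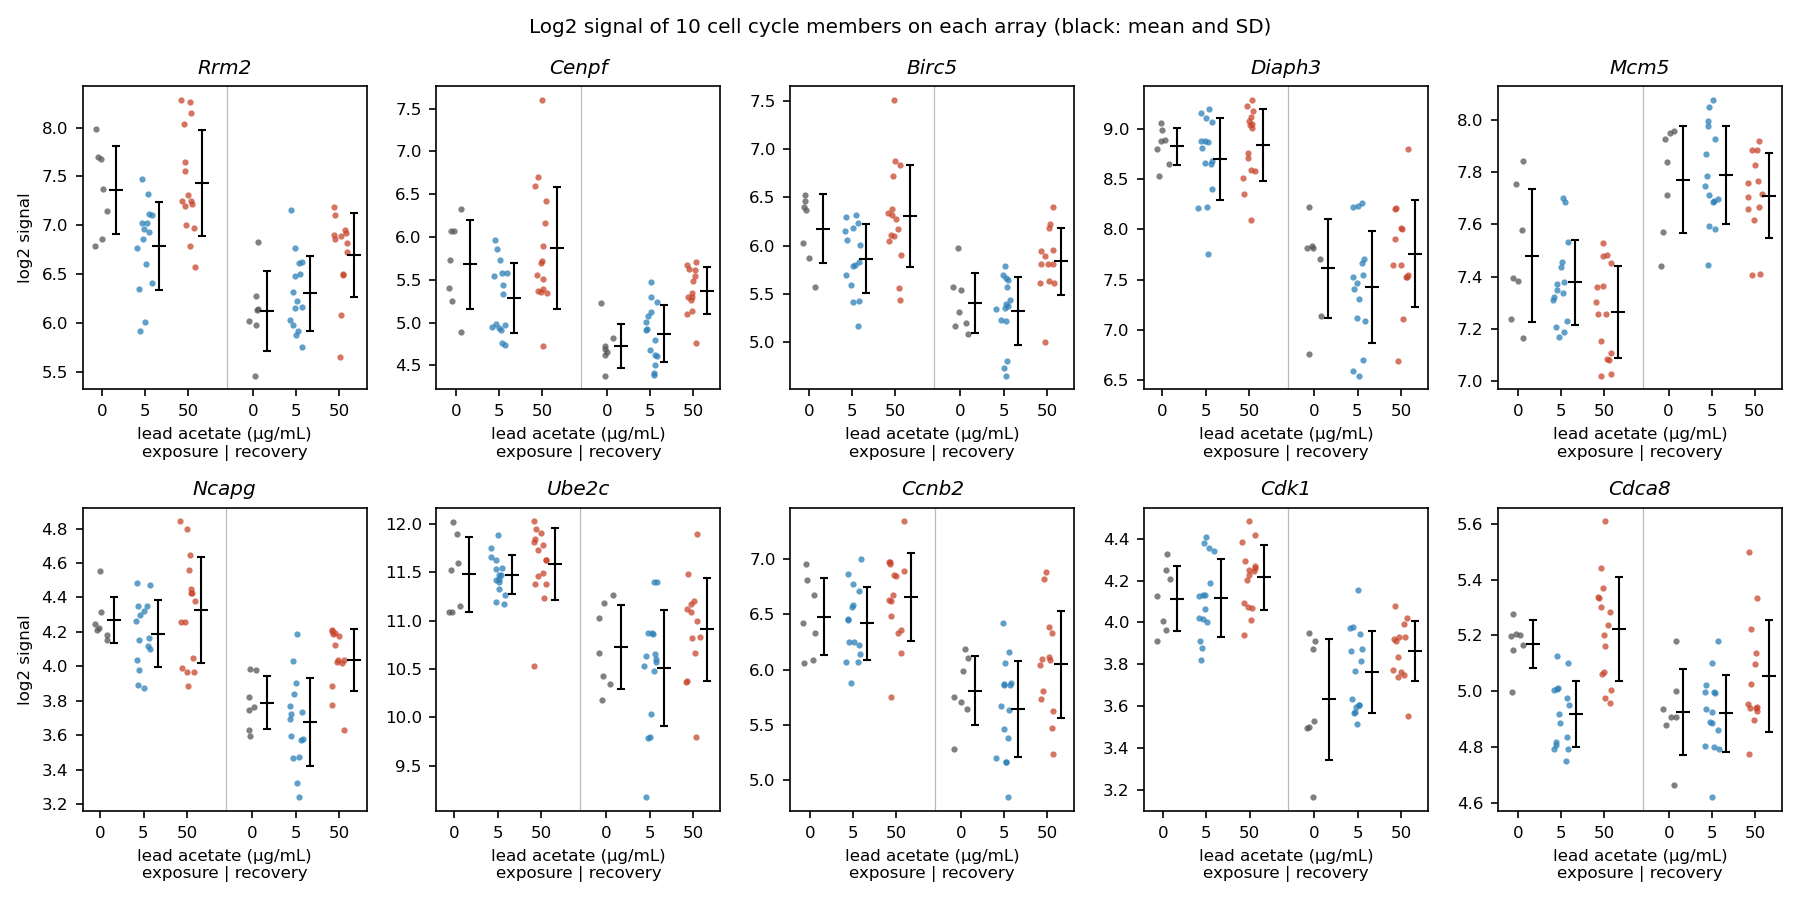
Log2 signal of the 10 members described array by array, with lead acetate in µg/mL on the x axis, exposure left and recovery right of the line; each point is 1 array, and black marks give the mean and SD. Diaph3, Ube2c and Ccnb2 lay lower after recovery at each dose and Mcm5 higher, with 9 of 15 low-dose and 11 of 13 high-dose recovery arrays of Mcm5 above every exposure array of their dose.

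In chromosome structure, Ncapg, a condensin subunit, ran from 4.15 to 4.55 (median 4.22) and then from 3.60 to 3.98 (median 3.76) in controls, with all 7 recovery arrays below every exposure array. Low-dose arrays ran from 3.87 to 4.49 (median 4.16) and then from 3.24 to 4.19 (median 3.70), with 12 of 15 below. At the high dose it ran from 3.89 to 4.84 (median 4.38) and then from 3.63 to 4.21 (median 4.03), with 3 of 13 below. Ncapg fell by 0.48 ± 0.12, 0.51 ± 0.08 and 0.29 ± 0.08 (adjusted p = 0.00102, 3.97e-07 and 0.00339). Its other probe set, dimmer and not past the filter, gave -0.16, -0.12 and 0.02. Top2a, the topoisomerase that untangles chromosomes, fell by 0.29 ± 0.10 in controls and by 0.34 ± 0.07 at the high dose. The control call was lost without exposure replicate 4 or 6 (-0.24 in both cases). Mki67, which encodes the Ki-67 coat of mitotic chromosomes, passed in 0 of 3 comparisons of collections.

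Of the spindle and kinetochore proteins, Birc5 (survivin, of the chromosomal passenger complex) and Cenpf (a kinetochore protein of late G2) fell at each dose. Birc5 ran from 5.57 to 6.52 (median 6.37) and then from 5.08 to 5.98 (median 5.31) in controls, from 5.17 to 6.32 (median 5.83) and then from 4.65 to 5.79 (median 5.37) at the low dose, and from 5.43 to 7.51 (median 6.28) and then from 5.00 to 6.40 (median 5.81) at the high dose. The ranges overlapped at each dose, with 6 of 7, 3 of 15 and 1 of 13 recovery arrays below all exposure arrays. Birc5 fell by 0.77 ± 0.20, 0.54 ± 0.14 and 0.47 ± 0.14 (adjusted p = 0.00169, 0.000882 and 0.00461).

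Cenpf ran from 4.90 to 6.33 (median 5.73) and then from 4.38 to 5.23 (median 4.69) in controls, from 4.74 to 5.97 (median 5.34) and then from 4.39 to 5.47 (median 4.92) at the low dose, and from 4.73 to 7.60 (median 5.70) and then from 4.76 to 5.71 (median 5.35) at the high dose. At the high dose 0 of 13 recovery arrays lay below the exposure range, which 1 low and 1 high array widened. Cenpf fell by 0.95 ± 0.23, 0.42 ± 0.16 and 0.50 ± 0.17 (adjusted p = 0.001, 0.0292 and 0.0103). Its other probe set past the filter gave smaller values, -0.14, -0.06 and -0.15. The low-dose call was lost without 1 of 4 single arrays, low-dose exposure replicate 8 or 13 or low-dose recovery replicate 4 or 7, with values between -0.38 and -0.37.

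Nusap1, which binds spindle microtubules near chromatin, fell by 1.13 ± 0.18 at the low dose and by 0.68 ± 0.18 at the high dose (adjusted p = 3.45e-07 and 0.00149), with 13 of 15 and 3 of 13 recovery arrays below all exposure arrays. In controls it differed by -0.57 at an adjusted p of 0.0744. Cdca8 (borealin, a partner of Birc5) fell in controls and at the high dose, by 0.25 ± 0.09 and 0.17 ± 0.06. The control call was lost without recovery replicate 5 (-0.20), and array centring ended both (-0.21 and -0.15). The low-dose difference was 0.00 ± 0.06 in the probe set used, whereas another probe set of the gene, with a mean of 3.95, gave -0.49 there. Bub1b, a checkpoint kinase, fell by 0.26 ± 0.08 at the low dose and by 0.19 ± 0.08 at the high dose. Its other probe set past the filter gave 0.06 and -0.10, and the high-dose call was lost without any of 14 of the 28 arrays, so its direction was not settled either. Tpx2, which activates Aurka on the spindle, passed in 0 of 3.

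The replication genes split. Rrm2, the regulated subunit of ribonucleotide reductase, ran from 6.79 to 7.99 (median 7.37) and then from 5.46 to 6.83 (median 6.13) in controls, from 5.91 to 7.48 (median 6.93) and then from 5.76 to 7.16 (median 6.22) at the low dose, and from 6.57 to 8.28 (median 7.25) and then from 5.65 to 7.19 (median 6.86) at the high dose. The controls barely overlapped, with 6 of 7 recovery arrays below all exposure arrays, and at the low dose 2 of 15 were. Rrm2 fell by 1.24 ± 0.23, 0.49 ± 0.16 and 0.73 ± 0.16 (adjusted p = 1.67e-05, 0.00822 and 0.000126). Its other probe sets gave -1.14, -0.76 and -0.88, and, for the dimmest, -0.23, -0.28 and -0.25. Pcna, the sliding clamp of DNA polymerase, fell by 0.24 ± 0.07 at the low dose and by 0.21 ± 0.07 at the high dose. It differed by -0.24 in controls at an adjusted p of 0.0616. The low-dose call of Pcna held under each of the 9 alternatives, whereas the high-dose call did not.

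Mcm5, a subunit of the MCM helicase, ran from 7.17 to 7.84 (median 7.39) and then from 7.44 to 7.96 (median 7.84) in controls, from 7.17 to 7.70 (median 7.35) and then from 7.44 to 8.08 (median 7.75) at the low dose, and from 7.02 to 7.53 (median 7.26) and then from 7.41 to 7.92 (median 7.71) at the high dose. Of the recovery arrays, 3 of 7, 9 of 15 and 11 of 13 lay above every exposure array of their dose. Mcm5 rose by 0.29 ± 0.10, 0.41 ± 0.07 and 0.44 ± 0.07 (adjusted p = 0.0161, 8.97e-07 and 2.52e-07). Mcm7, a second subunit, rose by 0.30 ± 0.12, 0.37 ± 0.08 and 0.38 ± 0.09 (adjusted p = 0.0468, 0.000218 and 0.000214). In controls the call for Mcm5 was lost without exposure replicate 5 (0.25) or 7 (0.24), and that for Mcm7 without any of 8 of the 14 arrays. Both control calls were also lost with the 18S ribosomal probe sets as a covariate (0.23 and 0.24), with the mean of probe sets (0.22 and 0.24) and when only the control groups were fitted. The other Mcm5 probe set past the filter gave 0.15, 0.29 and 0.40 in the order control, low, high. The other Mcm7 probe sets gave 0.20, 0.14 and 0.25, then 0.15, 0.18 and 0.24, and then 0.32, 0.39 and 0.35. With the 18S covariate the high-dose call of Mcm7 was lost as well (0.24, adjusted p = 0.0521). The 18S probe sets themselves were lower after recovery. Their median went from 6.88 to 6.49 in controls, from 6.88 to 6.31 at the low dose and from 7.50 to 6.46 at the high dose.

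Mcm2 rose by 0.16 ± 0.06 at the low dose and by 0.24 ± 0.06 at the high dose, and Mcm6 by 0.17 ± 0.06 and 0.18 ± 0.06. In controls they differed by 0.03 and 0.21 without passing (adjusted p = 0.79 and 0.0524). The 18S covariate ended the calls of both genes at both doses (Mcm2 0.10 and 0.12, Mcm6 0.11 and 0.05), and quantile normalization ended those of Mcm6 (0.11 and 0.09) and that of Mcm2 at the low dose (0.10). Rrm1, the large subunit of ribonucleotide reductase, rose by 0.11 ± 0.05 and 0.12 ± 0.05 at the low and high doses. A second, dimmer probe set of Rrm1 went the opposite way, by -0.20 and -0.06, and quantile normalization left 0.06 and 0.03, so its direction was not settled. Mcm3 and Mcm4 passed in 0 of 3. The probe sets used for Rrm2, Mcm3 and Mcm5 are of a design class that can also bind related transcripts. Those used for Mcm2, Mcm7, Cdca8 and Prc1 are of another class, which can match more than 1 transcript. A second Mcm4 probe set gave 0.28, 0.35 and 0.32 where the one used gave -0.08, 0.01 and 0.05.

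**Figure D2:**
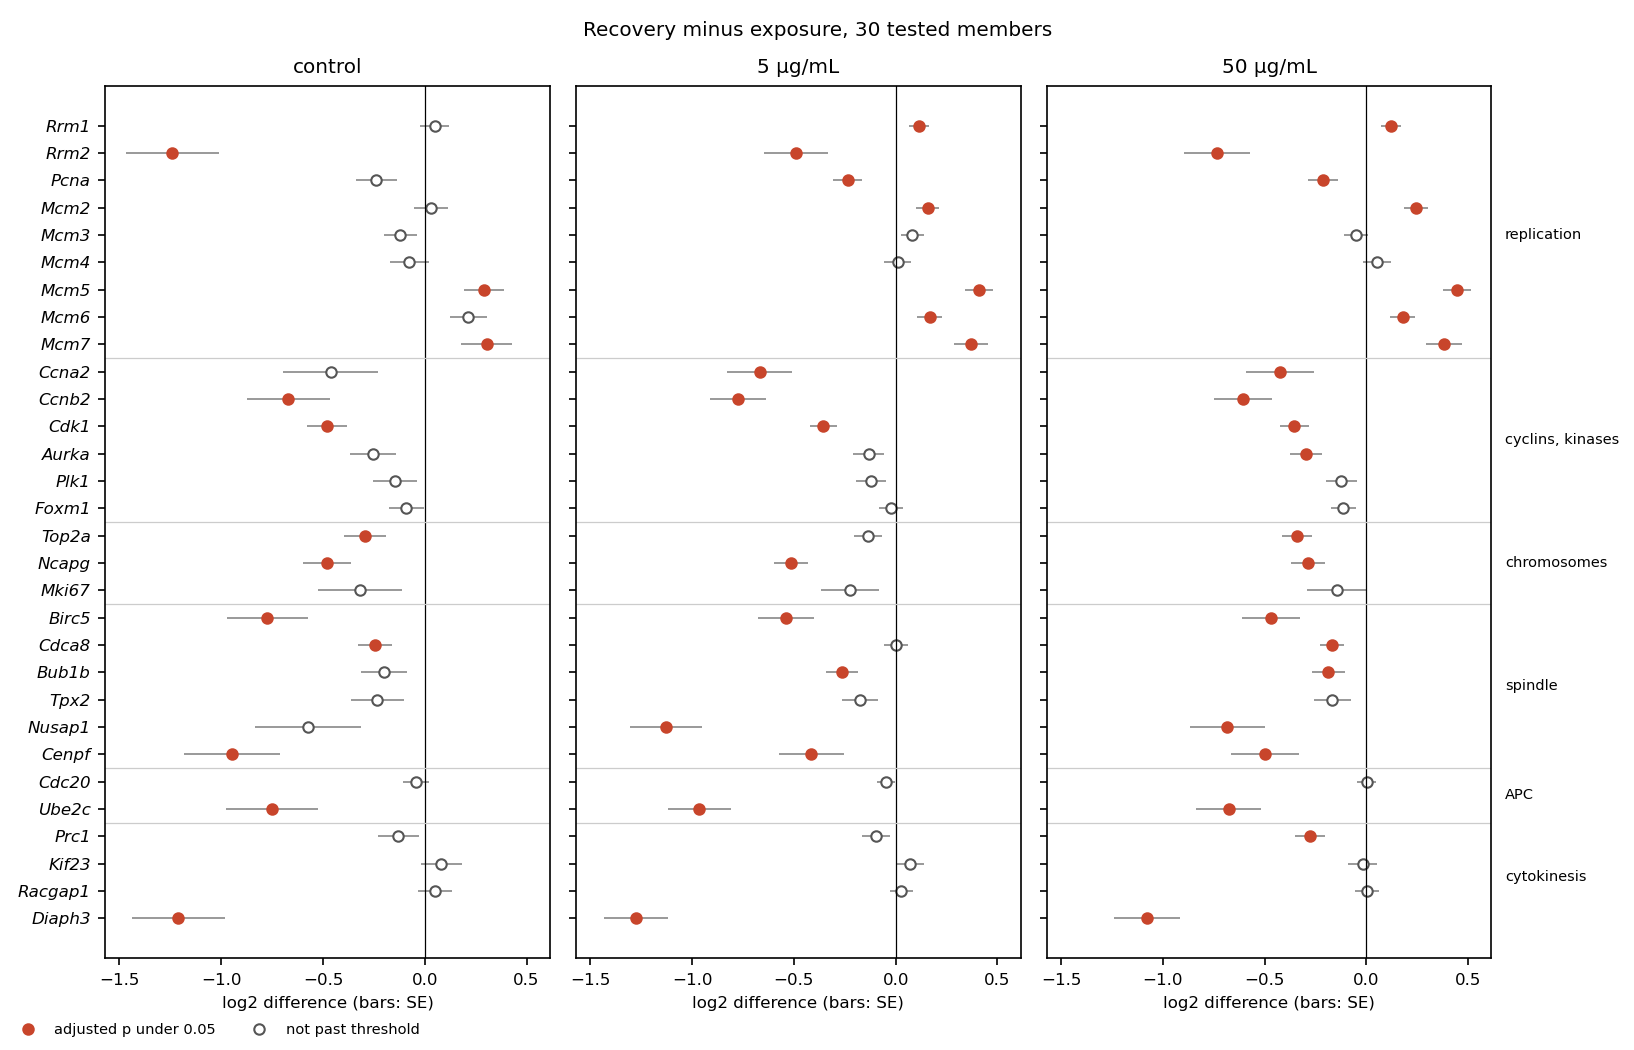
Log2 difference of recovery minus exposure for the 30 tested members (rows, ordered by role) in control, low-dose and high-dose mice; points are differences, bars their SE, and filled points passed an adjusted p of 0.05. Most members below the replication genes lie left of 0 at all 3 doses, whereas Mcm5 and Mcm7 lie right of 0 at all 3.

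Whether the dose effects after recovery differed from those after exposure was tested as an interaction. At the high dose 0 of 30 members passed, beside 0.00795% of all genes, and 1 member had an unadjusted p under 0.05, beside 3.43% of all genes (limma). The low-dose term gave 0 of 30, beside 0.0238% of all genes (0.0159% higher), and 3 had an unadjusted p under 0.05, beside 8.46% of all genes. The smallest p at the high dose belonged to Mcm2 (0.21, 95% interval 0.01 to 0.41), Rrm2 (0.51, -0.05 to 1.07) and Cenpf (0.45, -0.12 to 1.02). At the low dose the smallest belonged to Rrm2 (0.75, 0.20 to 1.30, adjusted p = 0.254), Cdca8 (0.25, 0.04 to 0.45) and Mcm3 (0.20, 0.00 to 0.40). For Rrm2, the fall between collections was 1.24 in controls and 0.49 at the low dose, without a difference that passed over all genes.

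At the end of exposure, the members differed between the lead doses and not, past the threshold, between either dose and control. High-dose arrays were higher than low-dose arrays in 10 members and lower in 0, where 18.6% of all genes passed, 6.02% higher and 12.6% lower. The median member differed by 0.136 and the median gene by -0.031. The 10 were Rrm2, Cenpf, Birc5, Mki67, Top2a, Cdca8, Tpx2, Prc1, Aurka and Racgap1, of every role except the degradation machinery, and Rrm2 was the only replication gene among them.

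Cdca8 had the smallest p. It ran from 4.75 to 5.13 (median 4.92) at the low dose, from 4.96 to 5.61 (median 5.24) at the high dose and from 5.00 to 5.28 (median 5.20) in controls. At the high dose 10 of 15 arrays lay above every low-dose array, and the control range lay within the high-dose range. High-dose Cdca8 exceeded low-dose Cdca8 by 0.30 ± 0.06 (limma, adjusted p = 0.000141). After recovery its ranges were 4.67 to 5.18 (median 4.91) in controls, 4.62 to 5.18 (median 4.93) at the low dose and 4.77 to 5.50 (median 4.95) at the high dose, which overlapped throughout.

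Top2a ran from 4.81 to 5.32 (median 5.07) at the low dose and from 5.17 to 5.86 (median 5.39) at the high dose, with 10 of 15 high-dose arrays above all low-dose arrays. It was higher by 0.36 ± 0.07 (adjusted p = 0.000163). The largest differences were those of Rrm2 (0.64 ± 0.16, adjusted p = 0.00288, 1.56-fold) and Cenpf (0.58 ± 0.16, adjusted p = 0.00756), with 6 and 5 of 15 arrays above the low-dose range. Birc5 followed with 0.44 ± 0.14 (adjusted p = 0.0177), Tpx2 with 0.25 ± 0.09, Prc1 with 0.24 ± 0.07 and Aurka with 0.22 ± 0.08. Mki67 (0.38 ± 0.14, adjusted p = 0.0497) and Racgap1 (0.15 ± 0.06, adjusted p = 0.049) lay at the threshold. Other probe sets past the filter gave smaller differences: 0.18 for Cenpf, 0.11 and 0.22 for Cdca8, 0.23 and 0.55 for Rrm2, 0.05 for Racgap1, and 0.05 and -0.12 for Tpx2.

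The count of 10 fell to 6 without low-dose exposure replicate 14, or without high-dose exposure replicate 7, 11 or 13, and to 4 with the array's hybridisation controls as a covariate. Those controls had a median of 9.84 on low-dose and 10.2 on high-dose arrays, and the 18S ribosomal probe sets 6.88 and 7.50. The 4 calls that held under the covariate were Rrm2, Cenpf, Top2a and Cdca8. With the 18S probe sets as a covariate 8 of the 10 calls held, and those of Aurka (0.21) and Mki67 (0.40) were lost.

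Against controls, 0 of 30 members passed at the high dose after exposure, beside 0.0238% of all genes, and 6 had an unadjusted p under 0.05, as 9.47% of all genes had (limma). The smallest p belonged to Mcm2 (-0.26 ± 0.07, adjusted p = 0.145, 10 of 15 arrays below every control), Mcm5 (-0.22 ± 0.08) and Racgap1 (0.18 ± 0.07). Low dose against control had 0 members past it, beside 1.3% of all genes (1.11% higher), and 5 had an unadjusted p under 0.05, as 12.4% of all genes had. The smallest p belonged to Cdca8 (-0.25 ± 0.07, adjusted p = 0.0616, 10 of 15 arrays below every control), Rrm2 (-0.57 ± 0.20, adjusted p = 0.141) and Mcm3 (-0.17 ± 0.07). Both doses share these controls, and Rrm2 differed from them by 0.07 at the high dose.

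After recovery, 0 members passed in any dose comparison. High dose against control had 0.429% of all genes past the threshold and 7 members with an unadjusted p under 0.05, beside 10.9% of all genes (limma). Cenpf (0.64 ± 0.21, adjusted p = 0.16), Mki67 (0.53 ± 0.18) and Rrm2 (0.58 ± 0.20) had the smallest p, with 10, 10 and 7 of 13 arrays above every control. High against low dose had 0% of all genes past the threshold and 15 members with an unadjusted p under 0.05, beside 14% of all genes (limma). Ncapg (0.36 ± 0.08, adjusted p = 0.136), Birc5 (0.51 ± 0.14, adjusted p = 0.178, 9 of 13 arrays above every low-dose array) and Mki67 (0.46 ± 0.15) came first. Low dose against control had 0% of all genes past the threshold and 0 members with an unadjusted p under 0.05, beside 2.34% of all genes. Cdk1 (0.13 ± 0.08), Cdc20 (0.07 ± 0.05) and Ube2c (-0.22 ± 0.19) had the smallest p there.

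**Figure D3:**
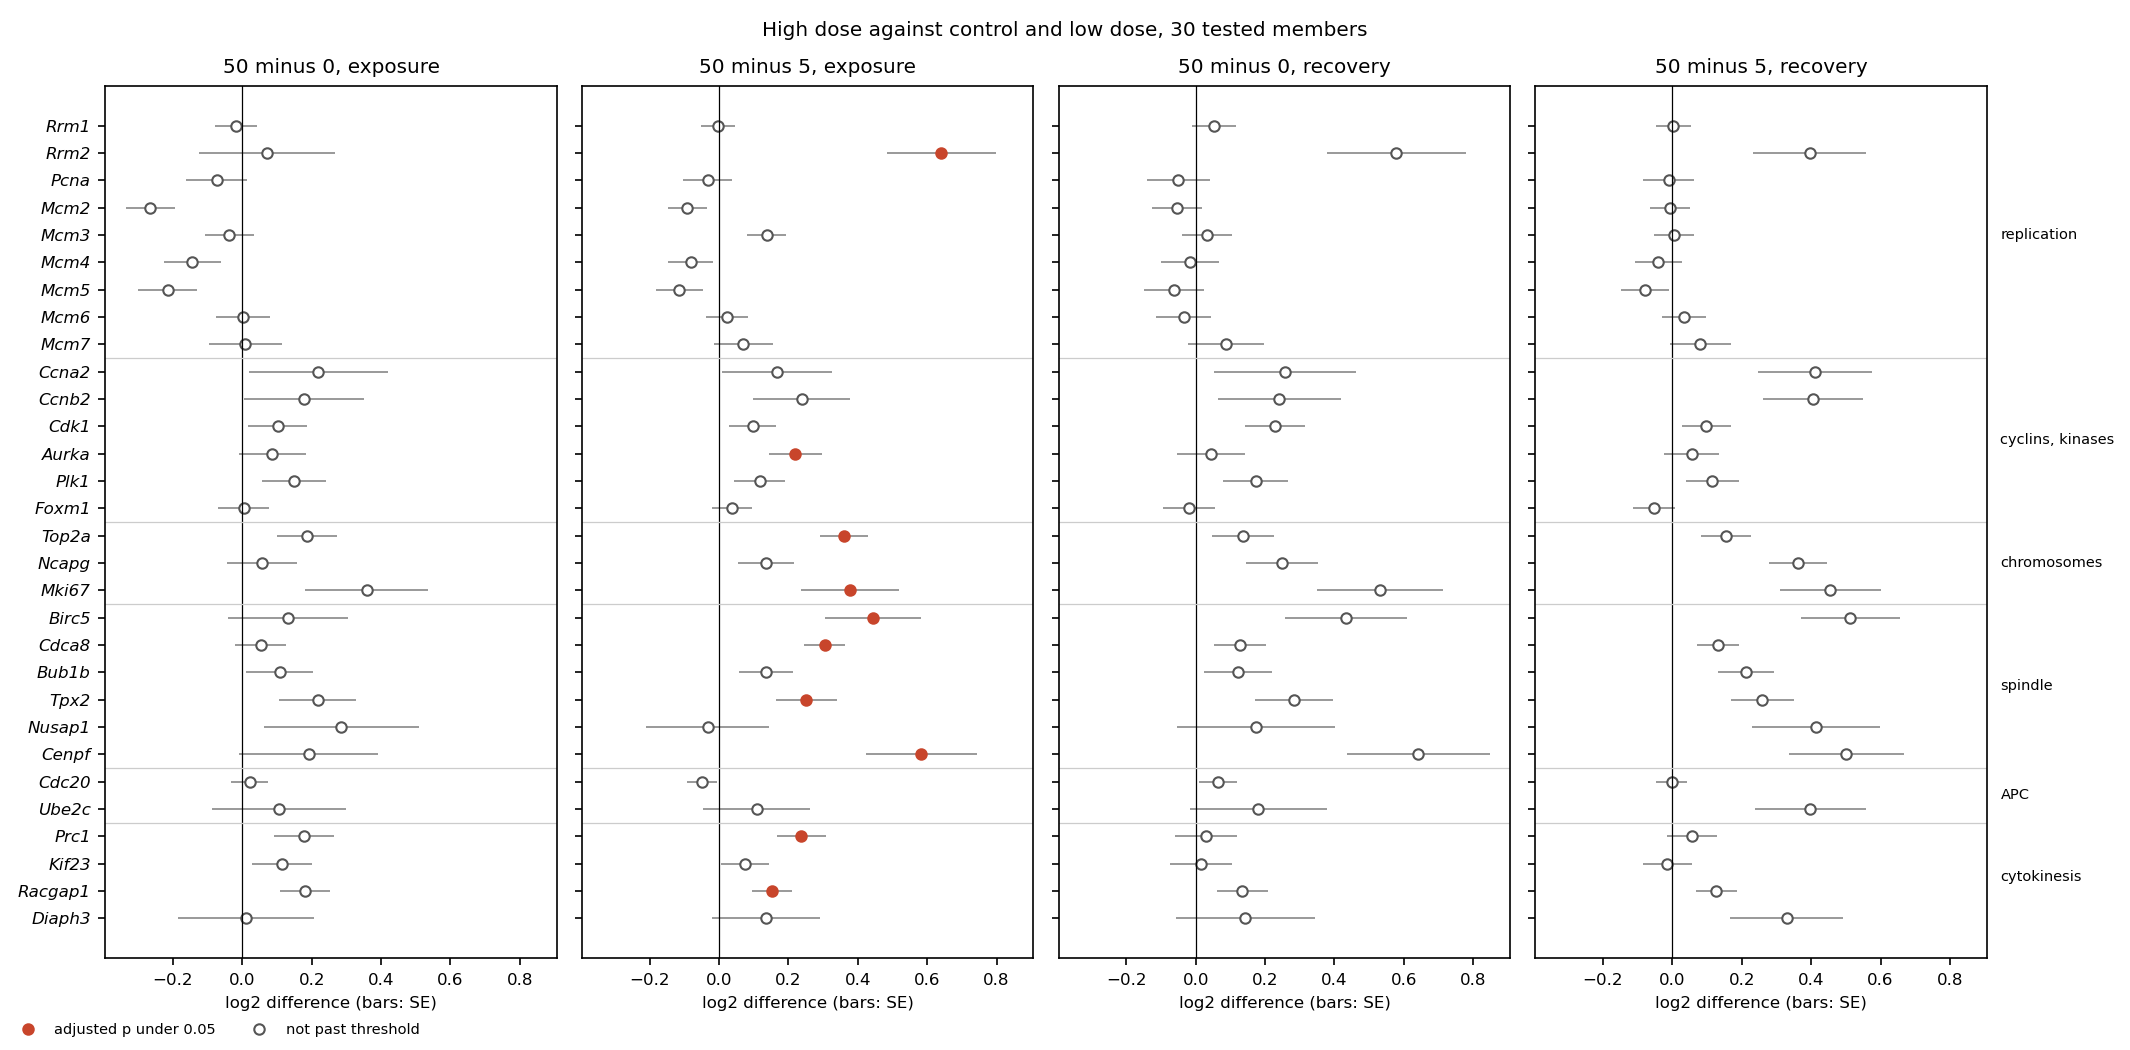
Log2 difference of the high dose minus control or low dose for the 30 tested members (rows, by role), after exposure and after recovery; bars are SE and filled points passed an adjusted p of 0.05. Filled points stand only in the panel of high minus low dose after exposure, where 10 members passed.

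Markers of some blood cell types moved with the same comparisons. Of all genes tested, 36.1%, 44.1% and 49.2% passed between collections in controls, low-dose and high-dose mice, and 18.6% between the doses after exposure. Of 16 erythroid markers 12, 12 and 13 fell between exposure and recovery in controls, low-dose and high-dose mice, and 0 rose, with medians of -0.589, -0.539 and -0.405. Gata1, the erythroid transcription factor, fell by 0.59 ± 0.09 in controls, and Epb42, a membrane skeleton protein, by 1.69 ± 0.23 at the low dose. The mean of the 16 ran from 8.34 to 9.10 in control, 8.43 to 9.00 in low-dose and 8.27 to 9.42 in high-dose exposure arrays, and from 7.80 to 8.37, 7.46 to 8.73 and 7.91 to 9.06 after recovery. Of 9 B cell markers, 9, 8 and 9 rose and 0 fell. Their mean ran from 7.14 to 8.98, 8.14 to 9.05 and 7.49 to 8.48 after exposure and from 8.94 to 9.54, 8.71 to 9.45 and 8.59 to 9.26 after recovery. Between the doses after exposure, 6 of 16 erythroid and 5 of 8 platelet markers were higher at the high dose and 0 lower, 8 of 9 B cell and 7 of 9 monocyte markers were lower, and 1 monocyte marker was higher. Of 10 T cell markers, 0, 2 and 4 rose between collections and 1, 1 and 1 fell. Of 7 NK and cytotoxic markers, 3, 1 and 2 rose and 0, 1 and 0 fell. The 9 monocyte markers gave 6, 2 and 5 higher and 0, 1 and 1 lower, and the 10 neutrophil markers 2, 3 and 5 higher. Of 8 platelet markers, 0, 2 and 1 rose and 5, 1 and 1 fell. Between the doses 1 T cell marker was higher and 2 lower, 2 neutrophil markers were lower, and 0 NK markers passed. The part of these lists in the members' differences between groups was not tested.

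Within groups, most mitotic members varied with the erythroid markers. Most replication genes varied with markers of lymphocytes, most strongly those of T and NK cells, and some with markers of monocytes and neutrophils. Each of the 30 members was correlated with the means of 9 marker lists over the 72 arrays after group means were removed, and p-values came from 100000 permutations within groups, adjusted over 270 correlations. Of the 21 members outside replication, 20 correlated positively with the erythroid mean, 15 of them past the threshold, with a median r of 0.575, where the median over all genes tested was -0.15. Ccna2 was highest (Pearson r = 0.915, Spearman rho = 0.898, permutation adjusted p = 8.44e-05 and 0.0001, the smallest they can give). Without the 2 arrays farthest from the median, r was 0.899, and within single groups it lay between 0.851 and 0.968. Ube2c (r = 0.895, rho = 0.876), Nusap1 (0.875, 0.871), Mki67 (0.874, 0.854), Ccnb2 (0.858, 0.836) and Diaph3 (0.82, 0.814) followed, each positive in all 6 groups.

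The replication genes lay elsewhere. With the T cell mean, Mcm4 had r = 0.854 (rho = 0.842), Pcna 0.809 (0.786), Mcm6 0.753 (0.742), Mcm5 0.74 (0.743), Mcm2 0.631 (0.582) and Mcm7 0.61 (0.618), all at a permutation adjusted p of 8.44e-05 for r and positive in all 6 groups. Without the 2 farthest arrays these were 0.84, 0.799, 0.728, 0.727, 0.591 and 0.593. The median over the 9 replication genes was 0.631, over the other 21 members -0.275 and over all genes 0.268. The relation was not limited to T cells: with the NK and cytotoxic mean all 9 were positive and 7 passed (median r = 0.563). With each of the B cell and plasma cell means 6 passed as positive, with the monocyte mean 4 and with the neutrophil mean 3. As negative, 1 passed with each of the B cell and monocyte means. With the progenitor mean 8 passed as negative (median r = -0.54), where the median over all genes was -0.217. Of the 6 markers in that mean, Meis1, Mpo, Elane and Prtn3 were dim, with means of 4.11, 3.93, 3.95 and 3.98, so it rests largely on signal near the filter. With the erythroid mean the 9 had a median r of -0.215. Rrm2 was the exception, at 0.533 with the erythroid and -0.204 with the T cell mean. Kif23 differed from most mitotic genes, with r = 0.539 for the neutrophil and 0.535 for the monocyte mean and -0.296 for the erythroid mean.

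Correlations among the members are given as a description, with no test. The 15 pairs of Mcm genes had a median r of 0.621 and all were positive. The 210 pairs of members outside replication had a median of 0.244, led by Nusap1 with Ube2c (0.963) and Ccna2 with Ccnb2 (0.922). The 189 pairs across the split had a median of -0.0652, and all pairs of genes tested 0.0275. These values share arrays and their RNA quality, so they are not independent of each other.

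**Figure D4:**
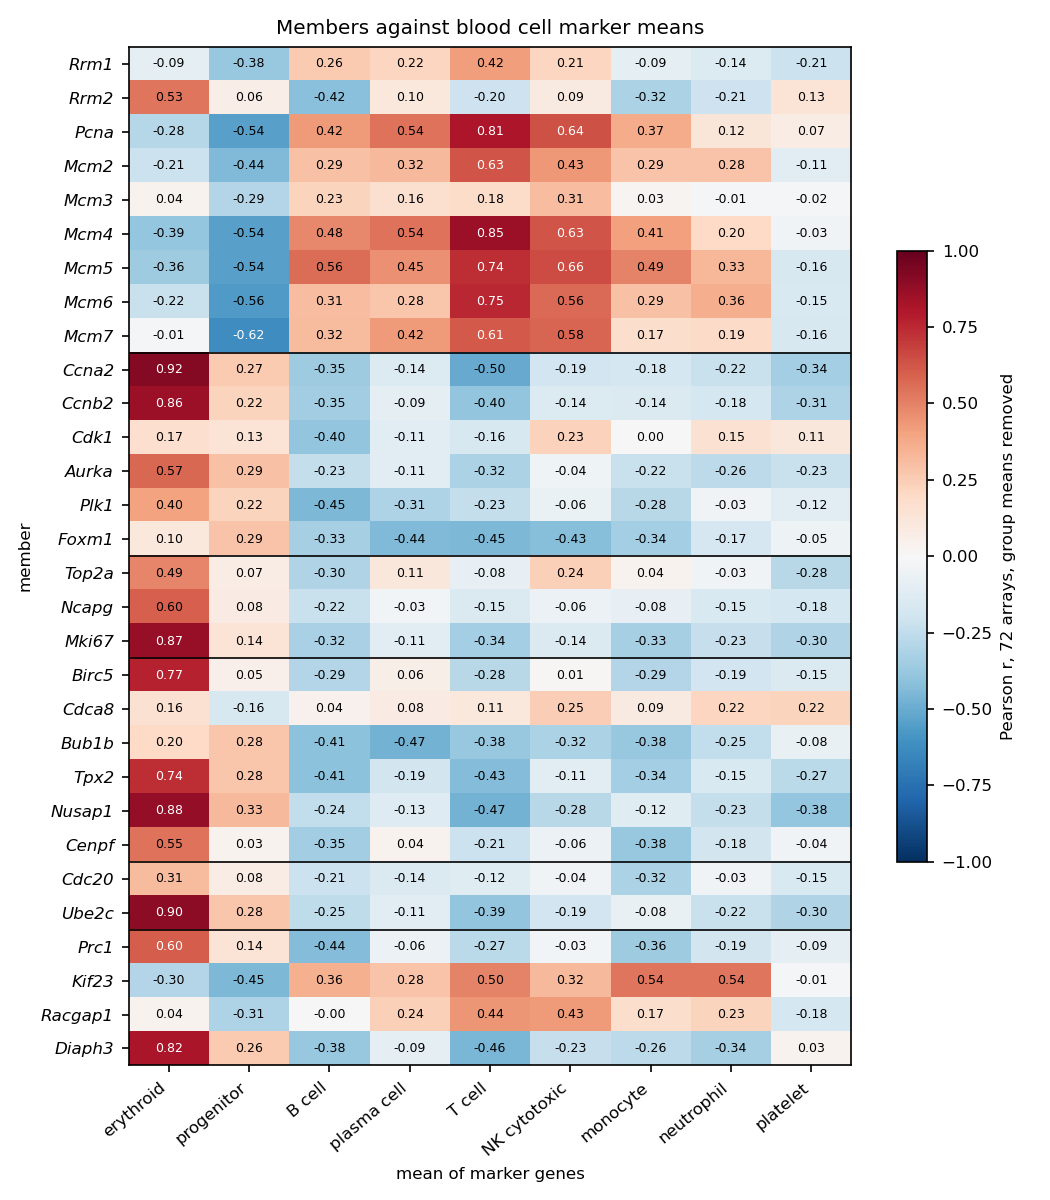
Pearson r of each of the 30 tested members (rows, by role) with the mean of 9 blood cell marker lists (columns) over 72 arrays after group means were removed; red is positive and blue negative. The erythroid column is red for most members below the replication genes, up to 0.915 for Ccna2, and the T cell column is red for Mcm4, Pcna, Mcm6 and Mcm5.

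Other genes of the pathway, listed by role, were read in the same fit. Of all genes tested, 13.6%, 17.9% and 19.8% fell and 22.5%, 26.2% and 29.4% rose between exposure and recovery in controls, low-dose and high-dose mice. Of 32 further mitosis genes, 12, 14 and 13 fell and 0, 1 and 1 rose between exposure and recovery in controls, low-dose and high-dose mice. Cenpa, the centromere histone, fell by 0.43 ± 0.10, 0.38 ± 0.07 and 0.43 ± 0.07, and Smc2, a condensin subunit, by 0.43 ± 0.11, 0.34 ± 0.07 and 0.39 ± 0.08. Of 25 further replication genes, 5, 7 and 5 fell and 2, 3 and 3 rose. In either direction these were 28%, 40% and 32% of the list, beside 36.1%, 44.1% and 49.2% of all genes. Pole, a replicative polymerase, rose by 0.44 ± 0.09, 0.21 ± 0.06 and 0.30 ± 0.07, while the histone chaperone Asf1b fell by 0.43 ± 0.11, 0.28 ± 0.08 and 0.26 ± 0.08. Of 23 genes of G1 and of cell cycle brakes, 6, 10 and 10 fell and 1, 3 and 3 rose. Cdkn2c, an inhibitor of Cdk4 and Cdk6, fell by 0.58 ± 0.15, 0.65 ± 0.10 and 0.52 ± 0.11, and Cdk6 rose by 0.29 ± 0.08, 0.33 ± 0.05 and 0.26 ± 0.05.

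Between the doses after exposure, 9 of the 32 mitosis genes, 2 of the 25 replication genes and 4 of the 23 G1 genes were higher at the high dose, and 1 replication gene was lower. In either direction these were 28.1%, 12% and 17.4% of the lists, beside 18.6% of all genes (6.02% higher and 12.6% lower). The largest of those named by the smallest p was Cdca5, which protects sister chromatid cohesion (0.62 ± 0.15, adjusted p = 0.00342), beside Spc25, a kinetochore subunit (0.35 ± 0.10). Uhrf1, which maintains DNA methylation, was higher by 0.34 ± 0.07 and Orc1, of the origin recognition complex, by 0.27 ± 0.09, while Gmnn, which blocks relicensing of origins, was lower (-0.20 ± 0.07). E2f8, a repressor of E2F targets, was higher by 0.34 ± 0.08, and Ccnd1, cyclin D1, by 0.23 ± 0.06.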

How the data were processed

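Deposited values are log2 signals from RMA, a multi-array averaging of probe intensities, as the submitters' processing notes name it. For its software and background step, the sources used here give nothing. The deposited log2 values ran from 0.410 to 14.1 and were used without further scaling. Of 45101 probe sets, 34945 carried 1 gene symbol in the platform annotation and 932 several, and 9160 are unnamed here. A gene was its one-symbol probe set of highest mean, tested where it exceeded 4.141 on at least 7 arrays. Sample titles gave groups and replicate numbers. Group means over all 72 arrays were fitted with limma 3.58.1 in R 4.3.3, tested two-sided and adjusted by Benjamini-Hochberg over 12580 genes. The script was tested on simulated data. Precision is limited by the number of arrays. The members and gene lists were chosen with earlier results of these data known. Members past the threshold were named, at most 10 of smallest p, or the 3 of smallest p where fewer than 3 passed. Values of every group were given for the 10 members called in most comparisons, and other pathway genes were named by smallest p. Alternatives were quantile normalization, array centring, no filter, mean of probe sets, covariates, fewer groups, arrays left out and a replicate block. Sequences came from RefSeq (GRCm38.p6).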

Additional observations from a re-analysis of the deposited data

Results flagged for a closer look

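Among 60 sets of 7 control arrays, 1 set for each of the 30 tested members at each collection, 2 held an array that lay far from the others by Dixon's criterion, which chance meets in about 1 of 20 sets. Ncapg was highest in exposure control replicate 4, at 4.552, and the next array was at 4.317. Cdc20 was lowest in recovery control replicate 6, at 5.819, and the next was at 6.093.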

How the results depend on the processing

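Of 60 calls of single members, 37 held under each of 9 alternatives and with each array left out in turn. Rrm1 at the low dose turned from 0.1143 to -0.04267 with the mean of its probe sets. In the text's other counts, quantile normalization gave 1 member for high dose against control and 2 for low dose against control after exposure, where 0 had passed. Low dose against control after exposure gave 1 with the 18S covariate and 1 with only the groups compared, and 0 to 1 with 1 array left out (1 without low-dose exposure replicate 10 or 12). High dose against control after recovery gave 1 with only the groups compared. High against low dose after exposure gave 4 with the hybridisation covariate, 6 without the 2 widely scattered arrays and 6 to 10 with 1 array left out. The calls of Mki67 and Racgap1 there were lost without any of 22 and 19 of the 30 arrays, those of Tpx2 and Aurka without any of 9 and 7. Between collections the counts stayed at 10 to 14, 15 to 18 and 19 to 22 with 1 array left out.

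Replicate numbers are shared by the groups, but same-numbered arrays did not deviate together: the median correlation of their deviations between collections was 0.035 in controls, 0.073 at the low and -0.001 at the high dose, and 0, 3 and 1 arrays correlated best with their own number. With the replicate block, 9 members passed for high against low dose after exposure, and 10, 17 and 18 between collections in controls, low-dose and high-dose mice. Of the calls made without the block, 9 of 10 for the doses and 8 of 12, 16 of 17 and 18 of 21 between collections passed with it. The 4 control calls that did not were Mcm5, Mcm7, Top2a and Cdca8. In the other 7 comparisons 0 passed with the block. Dim probe sets such as those of Cdk1 and Ncapg lie near the filter, which limits their precision.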
